A study of Mus musculus with 27 samples.

Results

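Regions of interest (ROIs) with high contractile gene levels were compared with ROIs with low levels, within the cancer-associated fibroblasts (CAFs) of mouse liver metastases. The members were chosen by measured values: each ROI was scored by the mean of Acta2, Tagln and Myl9 in log2(value + 1) after subtraction of the ROI's own median over all targets. The 5 highest and the 5 lowest ROIs were taken within CMTM6-knockdown and within control metastases separately, which gave 10 contractile-high and 10 contractile-low ROIs of 27 in all. ROI 26, a knockdown ROI with 76346 reads, was left out before the ranking, and 6 ROIs lay between the ends. The metastases were grown in C57BL6 mice, 2 months of age, by injecting MC38 murine colorectal cancer cells into the portal vein. The cells carried a CMTM6 shRNA in the knockdown group (13 ROIs) and a nontargeting shRNA in the control group (14 ROIs), so the fibroblasts themselves were not targeted in either group. Within each ROI the desmin-stained area was collected on the GeoMx Digital Spatial Profiler, and the mouse whole transcriptome probes were read out by sequencing as signal values for 18855 targets. Each group came from 3 mice, and which mouse each ROI came from is not labelled. The 5 ROIs of an end came from at most 3 animals, so some ROIs shared an animal. The p-values over ROIs given here take the ROIs as independent, do not measure the spread between animals and may be too small.

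Contractile myofibroblasts are fibroblasts that assemble smooth muscle type actin and myosin into stress fibers, anchor them at focal adhesions and pull on the collagen around them. In the liver they arise mainly from hepatic stellate cells and portal fibroblasts, and in tumors they form one state of CAFs beside inflammatory and antigen-presenting states. Tension in the stress fibers frees the coactivators MRTF and YAP to enter the nucleus, where serum response factor (SRF) and TEAD factors switch on contractile and matrix genes.

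The 3 score genes encode smooth muscle alpha actin (Acta2), the actin-bundling protein transgelin (Tagln) and a regulatory light chain of myosin (Myl9). Their values chose the ROIs and are given as a description. Acta2 had signal values of 482, 619, 934, 586 and 618 in the contractile-high knockdown ROIs, against 119.7, 93.3, 190.2, 300.3 and 378 in the contractile-low knockdown ROIs. In control metastases Acta2 had 914, 626, 540.1, 1051 and 756 in the contractile-high ROIs and 461, 357, 269, 358 and 404 in the contractile-low ROIs. The deposited values had a different 75th percentile in the 2 conditions, so values of single ROIs were compared only within a condition. Signal averages given below for high and for low ROIs pool 5 knockdown and 5 control ROIs, and are descriptions. Tagln spanned 240.3 to 402 in the high and 74.3 to 238 in the low knockdown ROIs, and 382 to 557 in the high and 149 to 247 in the low control ROIs. Myl9, the least abundant of the 3, overlapped between the ends in the centred values, with 3 of 5 high knockdown ROIs and 4 of 5 high control ROIs above all low ROIs of their condition.

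The score ranged from 3.33 to 3.96 in high and from 1.55 to 3.07 in low knockdown ROIs, and from 2.95 to 3.76 in high and from 2.03 to 2.51 in low control ROIs. Just inside the upper limit were ROI 20 (3.33) in knockdown and ROI 10 (2.95) in control, and just outside it ROI 17 (3.17) and ROI 11 (2.77). At the lower limit, ROI 27 (3.07) was inside and ROI 23 (3.08) outside in knockdown, and ROI 1 (2.51) was inside and ROI 15 (2.54) outside in control. The low knockdown ROI 27 thus scored above 3 of the high control ROIs, 9, 14 and 10, and every comparison below kept the condition in the fit. The 5 low control ROIs carried the numbers 1 to 5, and the low knockdown ROIs the numbers 16, 18, 19, 25 and 27. Whether neighbouring numbers share a section or a mouse is not labelled. Without mouse labels, the contractile level and the animal cannot be told apart in either condition.

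**Figure D1:**
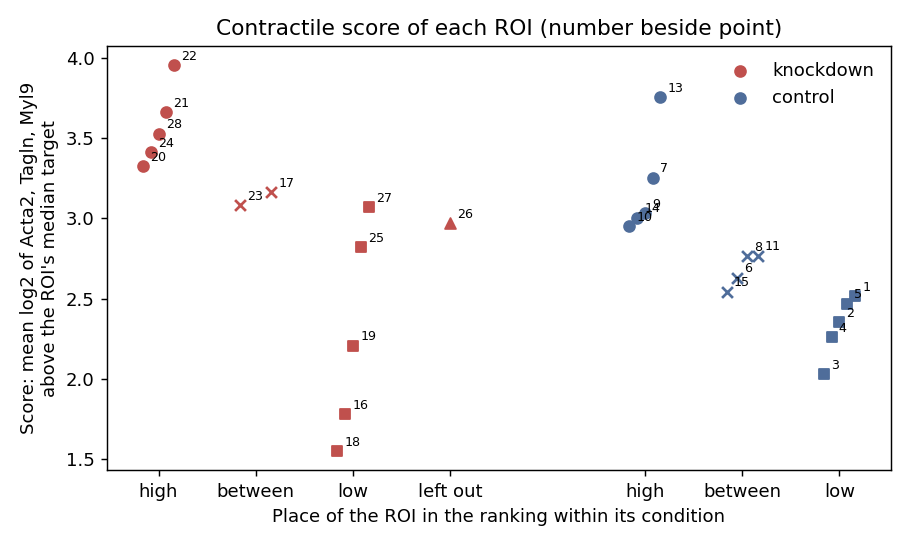
Contractile score of each of the 27 ROIs (y axis, log2 units above the ROI's median target), by place in the ranking and condition, with the ROI number beside each point. High knockdown ROIs sit between 3.33 and 3.96 and high control ROIs between 2.95 and 3.76; low knockdown ROIs spread from 1.55 to 3.07 and low control ROIs from 2.03 to 2.51.

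Depth overlapped between the ends. The 20 ROIs held 406002 to 3269149 reads, and the mean log2 reads of high ROIs differed from that of low ROIs by -0.13 (two-sided exact permutation within condition, p = 0.697 over 63504 arrangements). Des, which encodes the desmin used to outline the segments and is therefore no finding, had 40.6 to 73.8 in high and 30.2 to 44.2 in low knockdown ROIs, and 57.8 to 103 in high and 43.0 to 91.1 in low control ROIs. The fibroblast collagen Col1a1 was among the strongest signals at both ends, with means of 9819 in high and 6905 in low ROIs. Of other smooth muscle markers, the contraction-dampening protein Cnn1 averaged 14.0 in high and 10.7 in low ROIs, under the background level set by gene families not expected in liver.

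The CArG box, the sequence that SRF binds, was looked for in RefSeq promoter windows (GRCm38.p6, 250 bases before to 50 after each start) to show which contractile genes carry it near their start. It was present in 1.63% of all 32851 windows, in 1.81% of the 27025 genes with a window and in 14 of the 109 contractile list genes that had a window (12.8%). The stretches upstream of the start are printed for the score gene Myl9 and for the linker genes Fhl2, Fhl1 and Vcl, of which Fhl1 and Vcl were picked after their values were seen, with the box in capitals.
Myl9, chr2:156775263-156775352, plus strand: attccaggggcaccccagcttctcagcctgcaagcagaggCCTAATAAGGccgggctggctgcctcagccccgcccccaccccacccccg
Fhl2, chr1:43163962-43164032, minus strand: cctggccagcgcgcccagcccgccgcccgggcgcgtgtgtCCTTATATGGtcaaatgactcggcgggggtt
Fhl1, chrX:56779541-56779630, plus strand: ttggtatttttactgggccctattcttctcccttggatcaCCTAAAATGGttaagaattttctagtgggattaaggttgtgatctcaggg
Vcl, chr14:20929148-20929220, plus strand: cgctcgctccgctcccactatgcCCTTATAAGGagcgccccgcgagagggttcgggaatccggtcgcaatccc
The 14 list genes with a box had a median high minus low difference of 0.12 log2, with 13 above 0, and the 95 with a window and no box had a median of 0.07, with 60 above 0. Of the 55 genes in the matrix list described below, 37 had a window, and 0 of these had a box. The median of that list, 0.19, was taken over all 55 genes, with or without a window. A match is only a stretch of letters, and these values are a description. Every box found read CC, then only A or T, then GG. By that pattern Acta2 had a window without a box, and sites that depart from the pattern were not looked for. Tagln, Actg2, Myh11, Tgfb1i1 and Ccn2 were not matched to a window, nor were the matrix genes Thbs1, Cthrc1 and Lox. None of these was searched for a box.

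The first question was which other targets differed between contractile-high and contractile-low ROIs. The smallest p-values belonged to the adhesion genes Tgfb1i1 and Palld, both higher in high ROIs, followed by Sh3yl1 and Ace, both lower, and by Actg2 and Ccn1, both higher, but none passed the test after adjustment. In limma on the centred values with condition as a covariate, 0 of 18852 targets were higher (0.0%) and 0 were lower (0.0%) at an adjusted p under 0.05, and the smallest adjusted p was 0.452. At an unadjusted p under 0.05, 375 targets were higher (1.99%) and 362 lower (1.92%), 3.91% together. Of all targets tested, 8621 (45.7%) had a difference above 0. edgeR and DESeq2 on the reads recovered from the signal also called 0 in either direction, with 754 and 557 targets at an unadjusted p under 0.05. The split between higher and lower depended on the scaling: 50.9% of the targets at an unadjusted p under 0.05 were higher on the centred values, against 69.9% on the deposited values and 71.5% after centring on the 75th percentile. When the score was instead taken as a slope over all 26 ranked ROIs, 8 targets were higher at an adjusted p under 0.05 (0.0424%), and 346 at an unadjusted p under 0.05 (1.84%). The 8 were Actg2, Tgfb1i1, Ccn1, Hs6st2, Lox, Postn, Col5a2 and Loxl2; since Hs6st2, Col5a2 and Loxl2 lie outside the rule for named genes, they were chosen after their values were seen.

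Among actins and myosins, Actg2, the gamma actin of visceral smooth muscle, showed the widest difference. It had 37.3, 86.8, 74.4, 25.5 and 123 in high knockdown ROIs, against 25.0, 9.11, 14.1, 35.6 and 67.2 in low knockdown ROIs. Control values were 87.8, 57.8, 69.9, 108 and 65.9 in high ROIs, against 56.1, 44.2, 32.0, 39.4 and 38.6 in low ROIs. In knockdown, the low ROI 27 exceeded 2 of the high ROIs, and the low ROI 25 (35.6) exceeded the high ROI 24 (25.5). In control the deposited signal of the ends did not overlap, but after centring the low ROI 1 (0.93) exceeded the high ROI 14 (0.80). The high minus low difference was 1.04 log2 (SE 0.25, limma unadjusted p = 0.000226, adjusted p = 0.727), and the slope over 26 ROIs was 1.09 log2 per unit of score (adjusted p = 7.69e-06). Actg2 and Acta2 encode nearly identical proteins, and how far their probes separate the 2 transcripts was not tested. Myh11, the smooth muscle myosin heavy chain, averaged 25.5 in high and 14.7 in low ROIs (0.66 log2, SE 0.18, adjusted p = 1.00).

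The nonmuscle heavy chain Myh10 averaged 44.8 in high and 32.4 in low ROIs (0.40 log2, SE 0.16). Of the 14 actins and myosins measured, 13 had a difference above 0 (92.9%, beside 45.7% of all targets), with a median of 0.15. The exception was Actb, picked after its value was seen. At an unadjusted p under 0.05, 3 were higher (21.4%, beside 1.99%) and 0 lower. Actg1, a cytoplasmic actin, differed by 0.15 log2 (SE 0.12). Among 21 regulators of actomyosin, 2 were higher at an unadjusted p under 0.05 and 0 lower, beside 1.99% and 1.92% over all targets, with a median of 0.15. These were the tropomyosins Tpm2 (110.8 in high and 82.4 in low ROIs, 0.40 log2, SE 0.12) and Tpm1 (0.27 log2, SE 0.13). The smoothelin gene Smtn differed by 0.52 log2 in knockdown and by -0.04 in control ROIs, and by 0.24 log2 (SE 0.12) over both.

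Adhesion and cytoskeletal linkers, which tie actin bundles to integrins and to each other, held the 2 smallest p-values of the whole table. Tgfb1i1, the TGF-beta-inducible focal adhesion adaptor Hic-5, had 40.6, 43.4, 42.3, 42.3 and 48.1 in high knockdown ROIs, against 27.4, 20.4, 27.4, 35.6 and 33.6 in low knockdown ROIs. In control it had 72.6, 56.0, 54.7, 79.8 and 83.5 in high ROIs, against 56.1, 37.7, 50.05, 43.0 and 34.0 in low ROIs. The knockdown groups did not overlap, and in control ROI 1 reached into the high range. The difference was 0.58 log2 (SE 0.12, unadjusted p = 2.6e-05, adjusted p = 0.452), and it lay between 0.53 and 0.62 when any single ROI was left out.

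Palld, which encodes the stress fiber scaffold palladin, had 62.2, 52.5, 57.9, 70.4 and 61.3 in high knockdown ROIs and 54.8, 39.7, 38.4, 55.6 and 42.3 in low knockdown ROIs. In control it had 210.3, 70.9, 118, 132 and 163 in high ROIs, against 94.1, 54.3, 68.1, 64.5 and 79.4 in low ROIs, with only the high ROI 9 inside the low range. After centring, the knockdown groups did not overlap. The difference was 0.60 log2 (SE 0.13, unadjusted p = 6.03e-05, adjusted p = 0.452). Of 42 linkers, 28 were above 0 (66.7%, beside 45.7% of all targets), and 8 were higher (19.0%, beside 1.99%) and 0 lower with an unadjusted p below 0.05, with a median of 0.08. They included the LIM proteins Fhl2 (0.34 log2, SE 0.14) and Csrp2 (0.26 log2, SE 0.12). Zyxin (Zyx), paxillin (Pxn) and caveolin 1 (Cav1), equally part of adhesions and the cell cortex and picked after their values were seen, were under 0 at -0.01, -0.04 and -0.15 in that order.

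The remaining contractile lists had medians of 0.01 to 0.08. In the list of transcription control of smooth muscle, Tbx18 (0.51 log2, SE 0.18) was higher and Nkx2-3 (-0.43 log2, SE 0.20) lower at an unadjusted p under 0.05, both under the background level, and Srf itself differed by 0.12 log2 (SE 0.11). Calcium and ion handling genes had 0 of 23 members past that limit, beside 3.91% of all targets, and a median of 0.01. Receptors and ligands of contraction had 1 of 22 (4.55%, beside 3.91% of all targets). It was the thromboxane receptor gene Tbxa2r (0.36 log2, SE 0.17), also under the background level. Over all 142 measured members of the 6 contractile lists, 97 were above 0 (68.3%, beside 45.7% of all targets). At an unadjusted p under 0.05, 15 were higher (10.6%, beside 1.99%) and 1 was lower (0.70%, beside 1.92%). After adjustment 0 passed, and the median was 0.08, against -0.02 over all targets tested. The lists were not chosen independently of smooth muscle biology, and members of one pathway are not independent of each other.

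Immediate targets of SRF and MRTF, part of which are also bound by YAP and TEAD, included Ccn1 and its relative Ccn2. Ccn1, which encodes a secreted matricellular protein, had 87.0, 89.1, 89.2, 83.7 and 106 in high knockdown ROIs and 71.0, 43.4, 89.2, 113 and 81.7 in low knockdown ROIs. Control metastases had 207, 102, 213, 188 and 182 in high ROIs, against 96.1, 73.6, 81.2, 95.0 and 97.6 in low ROIs. The control groups did not overlap in the deposited signal and overlapped by ROI 9 after centring, while in knockdown they overlapped on both scales. The difference was 0.57 log2 (SE 0.14, unadjusted p = 0.000231, adjusted p = 0.727), 0.32 in knockdown and 0.82 in control ROIs; the difference between these 2 was -0.49 (SE 0.26, adjusted p = 0.340). Ccn2 differed by 0.57 log2 (SE 0.19) and the actin-oxidizing enzyme gene Mical2 by 0.31 log2 (SE 0.11). Of the 23 targets in the list, 17 were above 0, and 6 were higher (26.1%, beside 1.99% of all targets) and 0 lower with an unadjusted p below 0.05, with a median of 0.14.

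**Figure D2:**
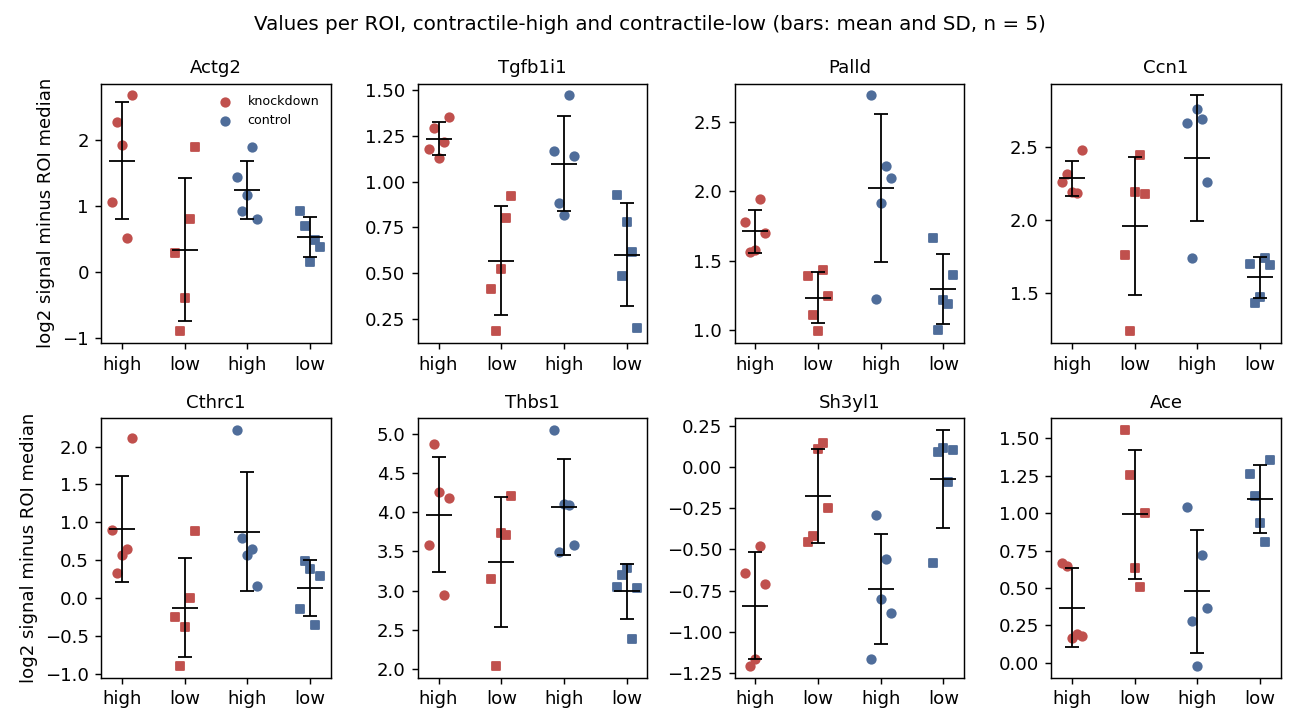
Centred log2 signal of 8 targets in each of the 20 ROIs (circles, contractile-high; squares, contractile-low; red, knockdown; blue, control; black bars, mean and SD of 5 ROIs). Tgfb1i1 and Palld separate the knockdown ends completely, Ccn1 and Thbs1 separate mainly the control ends, and Sh3yl1 and Ace lie lower in the high ROIs.

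The matrix of activated fibroblasts was described next. Cthrc1, a secreted glycoprotein of activated fibroblasts, had 33.1, 21.7, 28.2, 28.2 and 82.0 in high knockdown ROIs, against 16.9, 9.11, 14.1, 20.0 and 32.7 in low knockdown ROIs. In control it had 151, 52.2, 45.9, 44.6 and 41.7 in high ROIs, against 26.0, 37.7, 37.7, 21.5 and 36.3 in low ROIs. A single high ROI in each condition, ROI 28 in knockdown and ROI 7 in control, stood well above the others. The difference was 0.89 log2 (SE 0.22, unadjusted p = 0.000275, adjusted p = 0.741).

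Thbs1, which encodes thrombospondin 1, an activator of latent TGF-beta, had 219.6, 530.0, 377, 142 and 348 in high knockdown ROIs and 188, 76.5, 261, 274 and 335 in low knockdown ROIs. Control values were 1080.5, 347, 543, 497 and 459 in high ROIs, against 246, 254, 288, 149.6 and 249.7 in low ROIs, with no overlap. The difference was 0.84 log2 (SE 0.22, unadjusted p = 0.000556). The collagen cross-linking enzyme Lox differed by 0.45 log2 (SE 0.15), the matricellular protein gene Postn by 0.54 log2 (SE 0.18) and the collagen-binding glycoprotein gene Sparc by 0.35 log2 (SE 0.13). Col1a1, picked after its value was seen, differed by 0.46 log2 (SE 0.17).

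Of 55 matrix genes, 47 were above 0 (85.5%, beside 45.7% of all targets), 13 were higher (23.6%, beside 1.99%) and 0 lower with an unadjusted p below 0.05, and the median was 0.19, staying between 0.14 and 0.22 when any single ROI was left out. In the slope over 26 ROIs, 26 of the 55 were higher at an unadjusted p under 0.05, beside 1.84% of all targets. Other fibroblast lists had smaller medians. The 28 measured genes of quiescent hepatic stellate cells had a median of 0.05. Genes of portal fibroblasts and mesothelium had 2 of 20 higher (10%, beside 1.99% of all targets) and a median of 0.13. These 2 were the matrix protein genes Dpt (0.61 log2, SE 0.23) and Fbln2 (0.45 log2, SE 0.18). Pericyte and mural cell genes had 0 of 25 past the limit and a median of -0.06.

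Among lower targets, Sh3yl1, an SH3 domain protein gene, had 10.8, 6.85, 7.83, 12.3 and 10.8 in high knockdown ROIs, against 14.5, 13.1, 20.4, 22.2 and 14.4 in low knockdown ROIs, and 13.6, 24.3, 17.1, 18.8 and 19.8 in high control ROIs, against 19.0, 28.5, 31.2, 26.0 and 31.8 in low control ROIs. Ace, the angiotensin-converting enzyme gene, had 28.2, 27.4, 21.1, 20.3 and 20.7 in high knockdown ROIs, against 61.5, 44.1, 29.7, 28.9 and 35.5 in low knockdown ROIs, and 66.6, 36.4, 30.1, 47.0 and 48.3 in high control ROIs, against 71.1, 58.9, 55.8, 49.3 and 77.2 in low control ROIs. After centring, the knockdown ends did not overlap for Sh3yl1, while they overlapped for Ace, and the control ends overlapped for both genes. The differences were -0.67 log2 for Sh3yl1 (SE 0.15) and -0.62 log2 for Ace (SE 0.14), both with an adjusted p of 0.452. Both genes were picked after their values were seen. Sh3yl1 was a weak target, and every high ROI had it below its own median target (centred -1.21 to -0.29). Olfr1189, an olfactory receptor target of the families that set the background level, had a difference of -0.60 log2 (SE 0.16). It was picked after its value was seen. The glycolytic regulator Pfkfb3 (-0.39 log2, SE 0.13) and the TGF-beta corepressor Tgif1 (-0.30 log2, SE 0.12) were also lower at an unadjusted p under 0.05. All high ROIs lay above all low ROIs in both conditions for 1 target of 18852 (0.0053%), Rgs11 (0.32 log2, SE 0.12), also picked after its value was seen. In this upward direction 136 of the 18852 targets separated in knockdown and 82 of the 18852 in control, each condition taken alone. These counts are descriptions and were not set against the number that chance would give. Downward separation within a single condition was not counted. All high ROIs lay below all low ROIs in both conditions for 0 targets.

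The second question was whether the high minus low difference was the same in knockdown and in control metastases. In the interaction test 0 targets passed adjustment (smallest adjusted p = 0.184), while 3085 targets (16.4%) had an unadjusted p under 0.05: the knockdown difference lay above the control difference for 2283 (12.1%) and below it for 802 (4.25%). That split turned with the scaling: 74.0% lay above on the centred values, against 30.6% on the deposited values and 29.1% after centring on the 75th percentile. edgeR called 4 and DESeq2 1, with 2613 and 2118 at an unadjusted p under 0.05. Across the 18852 targets the knockdown and control differences had a correlation of -0.25, and -0.29 over the 11253 targets above background; genes are not independent replicates, and these are descriptions. Taken within a condition, 1500 of the 18852 targets in knockdown and 2028 of the 18852 in control had an unadjusted p under 0.05.

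**Figure D3:**
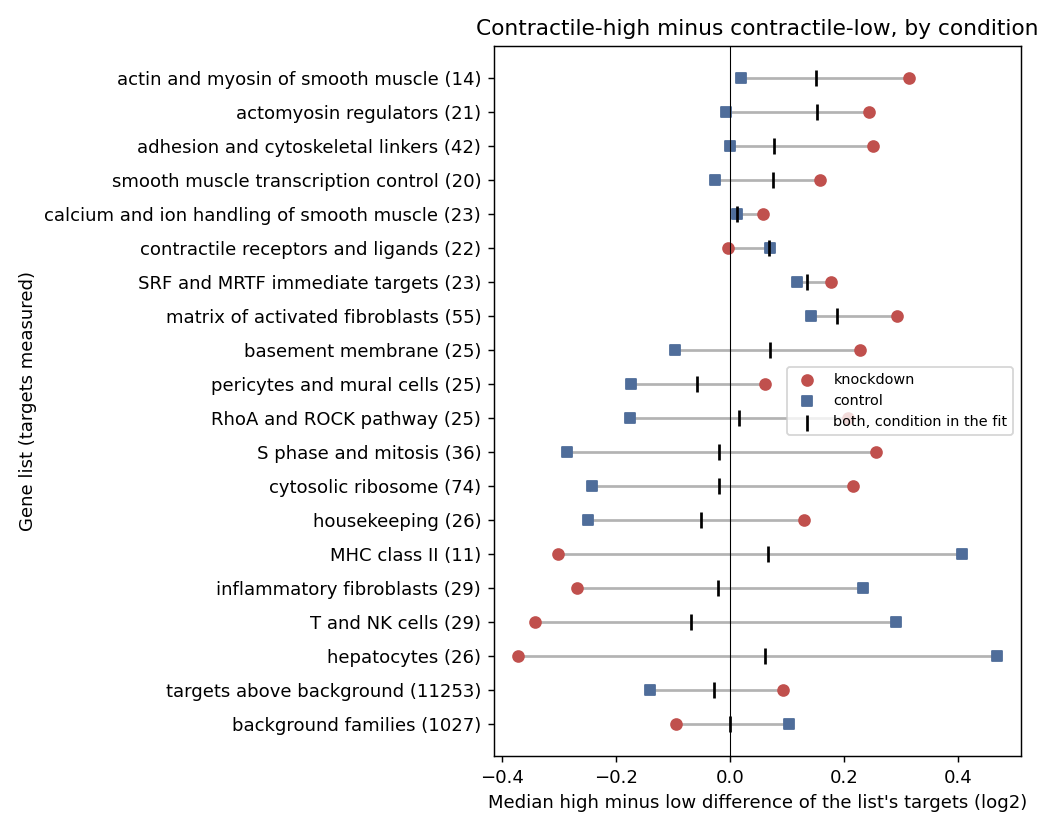
Median high minus low difference (x axis, log2) of 20 gene lists within knockdown ROIs (red circles), within control ROIs (blue squares) and over both (black bars); the number of targets measured is in brackets. The SRF and MRTF target and matrix lists lie above 0 in both conditions, while hepatocyte, T and NK cell, MHC class II, ribosome and mitosis lists lie on opposite sides of 0.

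Within the conditions the lists were described by their medians. The SRF and MRTF targets had medians of 0.18 in knockdown and 0.12 in control, and the matrix genes 0.29 and 0.14 in the same order. The 142 contractile members had medians of 0.17 in knockdown and 0.01 in control, against 0.09 and -0.14 over all targets above background. Their interaction median of 0.24 was that of all targets above background (0.24), and both were near 0 on the deposited values (0.02 and 0.02). Over all targets tested it was 0.07, and -0.14 on the deposited values. In this respect the lists stood level only with the targets above background.

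Several lists had medians of opposite sign in knockdown and control, while those of nerve and glia (-0.09 and -0.03) and of skeletal and heart muscle (-0.12 and -0.05) were below 0 in both. Of all 18852 targets, 10442 were above 0 in knockdown and 8041 in control, and of the 11253 above background, 7473 and 2943 in the same order. Of 26 hepatocyte genes, 2 were above 0 in knockdown and 24 in control, with medians of -0.37 and 0.47 in that order. Their summed signal was 583 to 961 in high and 460.5 to 1708 in low knockdown ROIs, and 701 to 1277 in high and 436 to 800.1 in low control ROIs. Of 29 T and NK cell genes, 3 were above 0 in knockdown and 27 in control, with medians of -0.34 and 0.29. Of 74 cytosolic ribosome genes, 73 were above 0 in knockdown and 0 in control, with medians of 0.22 and -0.24, and of 36 S phase and mitosis genes, 35 were above 0 in knockdown and 2 in control. Housekeeping genes had the same signs, with 22 of 26 above 0 in knockdown and 2 in control (medians 0.13 and -0.25). Of 11 MHC class II genes, 2 were above 0 in knockdown and 11 in control. The interaction medians kept their sign on the deposited values, at -1.01 for hepatocytes, -0.77 for T and NK cells, 0.24 for ribosome genes and 0.34 for mitosis genes. Background families moved the same way as hepatocyte genes, with medians of -0.09 in knockdown and 0.10 in control; the part of background, other cells or the animal in these values was not tested. In bulk segments, fewer cells of a type and less RNA per cell cannot be told apart.

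**Figure D4:**
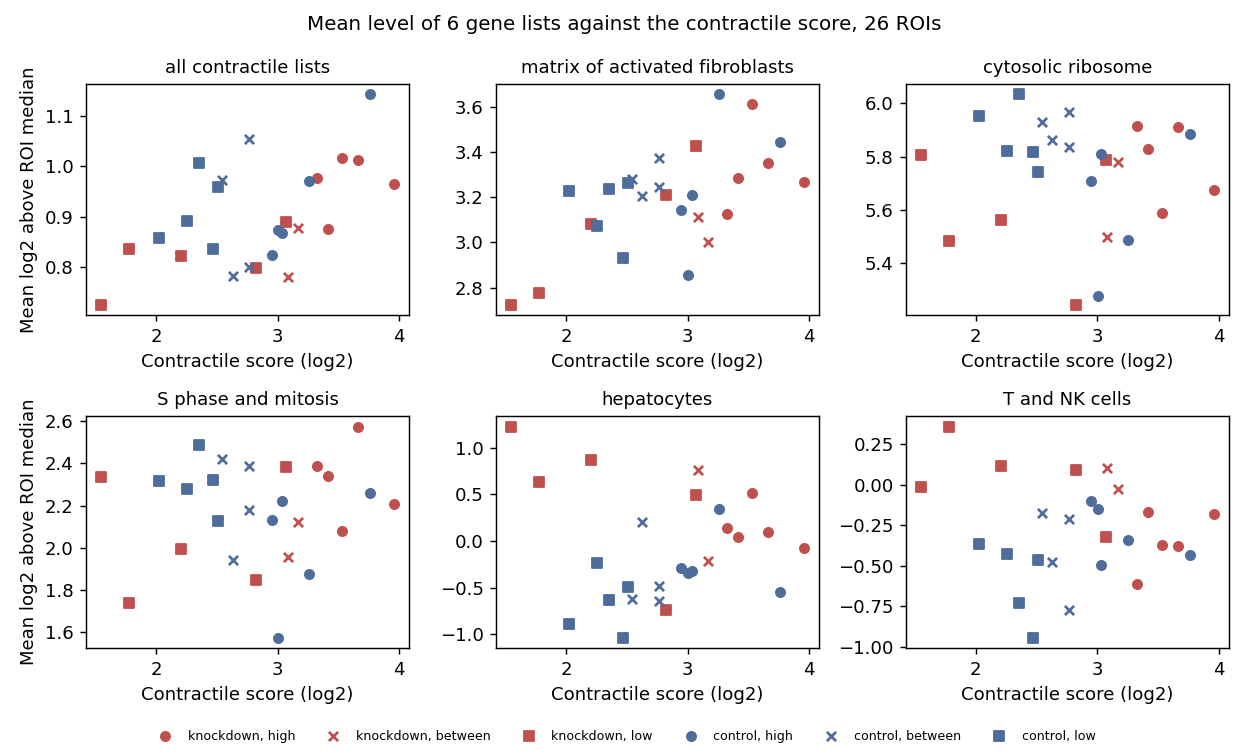
Mean centred log2 level of 6 gene lists (y axes) against the contractile score (x axes) in 26 ROIs, by condition and place in the ranking. In knockdown, contractile and matrix levels lie higher toward high scores, while in control the medians of the ends are close (contractile 0.874 in high and 0.892 in low, matrix 3.21 in high and 3.23 in low ROIs). T and NK cell levels run down in knockdown and up in control. The low control ROIs 1 to 5 lie at ribosome levels of 5.74 to 6.03. That range also holds the control ROIs between the ends and the high control ROIs 9 and 13, while the high control ROIs reach down to 5.28.

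Cxcl9, a chemokine that draws T cells, was the named target with the widest contrast between conditions. It had 115, 189.6, 178, 139 and 123 in high knockdown ROIs, against 340.5, 334, 609, 503 and 285 in low knockdown ROIs, with no overlap. In control it had 212, 257, 304, 228 and 160.3 in high ROIs and 198, 101, 199, 352 and 70.4 in low ROIs, with overlap. The difference was -1.36 log2 in knockdown and 0.37 in control, which differed by -1.74 (SE 0.39, adjusted p = 0.184); in the fit of knockdown ROIs alone it passed the test (adjusted p = 0.00213).

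The complement gene C4b had the same signs, with -0.86 log2 in knockdown and 0.82 in control (interaction -1.68, SE 0.40, adjusted p = 0.184). Of genes of antigen presentation, Cd74 had -0.36 in knockdown and 0.60 in control (interaction -0.96, SE 0.37), and H2-Ab1 -0.42 and 0.63. Ighm, an immunoglobulin heavy chain gene, had -0.22 in knockdown and 1.34 in control (interaction -1.56, SE 0.44). On the other side, the transcriptional corepressor gene Rcor1 had 0.40 in knockdown and -0.62 in control (interaction 1.02, SE 0.21, adjusted p = 0.184), and the proliferation marker Mki67 0.44 and -0.42 (interaction 0.86, SE 0.26). C4b, Rcor1 and Mki67 were picked after their values were seen.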

How the data were processed

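The deposited sheet holds signal values of 18855 targets in 27 ROIs; the authors analysed GeoMx probe tags with the GeoMx software, but the sources used here do not give its version or the normalization. In each ROI at least 99.98% of values were whole multiples of 1 read within 0.001, and these recovered reads served edgeR and DESeq2 only. Signal was taken as log2(value + 1), a scale that understates changes of low targets, and each ROI's median was subtracted. limma 3.58.1 (trend, two-sided, condition as covariate) gave differences, SEs and Benjamini-Hochberg adjusted p over 18852 targets, the 3 score genes being left out; an interaction term compared the conditions. Background was the 95th percentile of the mean log2 values of 1027 targets of gene families not expected in liver (4.10), and 11256 targets lay above it. The fit was tested on simulated data. Alternatives used edgeR 4.0.16, DESeq2 1.42.0, other scalings, pseudocounts, filters, ranks and single ROIs left out. Named genes are those called, up to 6 of each contractile list and 4 of each other list with the smallest p, and score genes; others are marked. The members and lists were chosen with earlier results of these data known. R 4.3.3, Python 3.11.15 and SciPy 1.17.1 were used.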

Additional observations from a re-analysis of the deposited data

Results flagged for a closer look

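In 232 groups of 5 ROIs (58 measures in each of 4 groups) 11 held a ROI far from the other 4, 4.74% of them, and chance flags about 1 in 20. All values are centred log2 signal unless stated. In the high knockdown ROIs, ROI 28 stood above the others for Mmp9, a gelatinase gene that neutrophils and macrophages also express (3.06, others -0.09 to 0.46), and for Sparc (7.04, others 6.61 to 6.74), and ROI 21 for Tbx18 (0.17, others -0.45 to -0.39). In the low knockdown ROIs, ROI 27 stood above for Rcor1 (2.96, others 2.13 to 2.31). In the high control ROIs, ROI 14 stood above for Tbx18 (0, others -0.47 to -0.40) and below for Postn (2.67, others 3.11 to 3.18) and Rpl9 (4.59, others 5.36 to 5.61). There ROI 7 stood above for Alb, the hepatocyte albumin gene, picked after its values were seen (2.16, others 0.23 to 0.79) and ROI 13 for Myl9 (1.92, others 0.87 to 1.15). In the low control ROIs, ROI 3 stood below for Tpm1 (4.41, others 4.86 to 5.02) and ROI 4 for Thbs1 (2.39, others 3.04 to 3.28).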

How the results depend on the processing

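The count of 0 higher targets became 8 with the score as a slope over 26 ROIs, 2 of them members of the contractile lists. The count of 0 lower targets became 1 with array weights (Ace, -0.74) and 1 in knockdown ROIs only (Cxcl9). With any ROI left out these counts stayed at 0. The interaction count of 0 became 59 with array weights, 4 with edgeR, 1 with DESeq2, 2 with the slope, 1 with ROIs ranked on Tagln alone and 4 with ROI 26 ranked. It became 1 without ROIs 14 and 25, an alternative chosen after seeing the data. With single ROIs left out it was 0 to 3, with 1 without ROI 4 and 3 without ROI 27. The 3085 interaction targets at an unadjusted p under 0.05 became 1669 with the slope and 1638 with ROIs ranked on Myl9 alone, and 2369 to 3731 with single ROIs left out. Within control ROIs alone, Smtn (-0.043) and Srf (-0.053) had the opposite sign. Ranked on Myl9 alone, which moved 2 ROIs to the other end, the interaction turned to 0.30 for Alb and to a median of 0.051 for hepatocyte genes. Of the named genes' high minus low differences, 1747 of the values under alternatives kept sign and side of the threshold, 9 newly passed it and 2 turned. The cause was not tested. An interaction could not be fitted without the condition in the model or within 1 condition. No paired analysis was possible because the replicate numbers were given in accession order and pair no samples. Precision is limited by 5 ROIs per end and condition from 3 mice and by the weakest targets lying at background.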
